A study of Mus musculus with 8 samples.

Results

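The aryl hydrocarbon receptor, encoded by Ahr, is a transcription factor that binds small aromatic molecules such as dioxins, tryptophan breakdown products and plant indoles. Without a ligand it is held in the cytoplasm by HSP90 chaperones. With one it enters the nucleus, pairs with its partner ARNT and binds DNA at sites with the core GCGTG, and its best known target is the cytochrome P450 gene Cyp1a1. AHRR, the repressor, and TIPARP, an enzyme that attaches ADP-ribose to the receptor, are themselves induced by it and limit its activity. The 6 genes described here are Ahr, Arnt, Ahrr, Cyp1a1, Cyp1b1 and Tiparp, out of 25237 genes in the table, and all 6 were found by symbol. They were chosen by their place in this pathway by someone who already knew their ketone and PBS values. The differences between the groups are therefore given for these 6 as a description, with no p-value, and how many passed the threshold used for all genes is given only beside the share of all genes that did.

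RNA was sequenced from muscle stem cells sorted from the hindlimb muscles of male mice of 2-4 months, gated as VCAM1+/CD31-/CD45-/Sca1-. The treatment label is ketones, a name for fuel molecules that the liver makes from fat during fasting, in 4 libraries and PBS, a salt buffer, in the other 4. The labels do not say whether mice or cells were treated, at which dose or for how long, or whether each library is a separate animal, so p-values reflect how far libraries of a group vary, and part of that can be technical. The strain entry is C57BL/6 for PBS and C57BL/7, C57BL/8 or C57BL/9 for ketone. If these are strains, strain and treatment cannot be told apart.

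The libraries held 19174005 to 29689632 reads in PBS and 25465671 to 36870537 in ketone (two-sided exact permutation p = 0.486). Muscle stem cell markers were present in every library, with Pax7 at 1500 to 2541 and Myf5 at 4978 to 9576 normalized counts, and 5 of the 12 listed fell and 0 rose. Transcripts of cells that the gate should remove were also present, and those of endothelial cells were higher in the ketone libraries. All 17 endothelial markers rose, and their summed level was 11559 to 14753 normalized counts in PBS and 41943 to 100534 in ketone. Pecam1, which encodes CD31, had a mean of 733 ± 118 in PBS and 4233 ± 1506 in ketone. For Ly6a, which encodes Sca1, the means were 535 ± 29.7 and 4907 ± 1742, without overlap. Ptprc, which encodes CD45, was at 20.3 ± 5.49 in PBS and 94.1 ± 136 in ketone, with overlap between groups. Vcam1, the gene of the marker the gate selects for, was at 42043 ± 3281 in PBS and 24879.5 ± 10765 in ketone, also with overlap. Every ± after a mean is an SD over the 4 libraries of a group, and every ± after a log2 difference is an SE. Ketone libraries 1 and 2 stood apart by a ribosomal RNA precursor, Rn45s, at 363069 and 396262 against 60108 to 118863 in the other 6. In these bulk samples, fewer cells of a type and less RNA per cell cannot be told apart.

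The start regions of the target genes are shown because the receptor acts at the GCGTG core, which is in capitals below on either strand (CACGC is the same core on the opposite strand). Each window runs from 250 bases before to 50 bases after the RefSeq start (GRCm38.p6, the build also called mm10), 5′ to 3′ along the gene.
Cyp1a1, chr9:57697363-57697662, plus strand: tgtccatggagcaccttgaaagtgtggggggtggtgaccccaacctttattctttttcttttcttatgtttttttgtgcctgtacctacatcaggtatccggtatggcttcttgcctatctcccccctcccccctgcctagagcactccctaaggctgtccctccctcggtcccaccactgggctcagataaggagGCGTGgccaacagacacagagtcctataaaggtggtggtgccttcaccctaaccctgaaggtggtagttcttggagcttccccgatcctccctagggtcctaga
Cyp1b1, chr17:79715012-79715311, minus strand: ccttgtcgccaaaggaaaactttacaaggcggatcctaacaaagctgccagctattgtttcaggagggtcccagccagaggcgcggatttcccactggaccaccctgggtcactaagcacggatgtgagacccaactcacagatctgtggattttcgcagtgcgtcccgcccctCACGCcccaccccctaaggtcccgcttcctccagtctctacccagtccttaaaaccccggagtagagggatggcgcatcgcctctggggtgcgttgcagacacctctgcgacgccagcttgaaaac
Tiparp, chr3:65528197-65528496, plus strand: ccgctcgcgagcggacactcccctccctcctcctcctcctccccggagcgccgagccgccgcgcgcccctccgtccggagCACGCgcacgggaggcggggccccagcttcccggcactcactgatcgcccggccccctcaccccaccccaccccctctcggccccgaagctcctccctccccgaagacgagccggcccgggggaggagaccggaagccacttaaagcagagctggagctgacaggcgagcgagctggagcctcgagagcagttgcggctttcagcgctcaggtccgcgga
Ahrr, chr13:74292282-74292581, minus strand: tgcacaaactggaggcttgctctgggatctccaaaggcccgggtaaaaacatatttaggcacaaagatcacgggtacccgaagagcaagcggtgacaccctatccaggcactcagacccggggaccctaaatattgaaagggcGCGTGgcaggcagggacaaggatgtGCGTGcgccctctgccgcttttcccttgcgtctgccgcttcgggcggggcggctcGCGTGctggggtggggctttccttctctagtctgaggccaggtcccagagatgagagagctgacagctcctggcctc

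Windows were found for 5 of the 6 genes, all but Ahr. The core stood once in each of the Cyp1a1, Cyp1b1, Tiparp and Arnt windows and 3 times in that of Ahrr. Of 32851 mouse windows of the same length, 32.4% held the core at least once on either strand and 3.91% held it at least 3 times. The longer form TNGCGTG, which contains the core, was in 5.07% of all windows and, among the 5, once in that of Ahrr. These are matches of letters and not measured binding sites, and sites outside the windows, such as farther upstream, were not searched. The Cyp1a1 window begins at 57697363, inside the gene span given below, which begins at 57687928. The RefSeq start used for the window thus lies downstream of the start of that span. Counted from the start along the gene, the core began at -54 in Cyp1a1, -76 in Cyp1b1, -170 in Tiparp and -29 in Arnt. The Ahrr window had the most copies, and Ahrr RNA was the scarcest of the 6.

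Ahr, the receptor gene (chromosome 12, 35497974 to 35535038, minus strand, mm10), was well expressed in every library. Its normalized counts were 6183, 6355, 5543 and 5504 in PBS libraries 1 to 4 and 3144, 5090, 6870 and 4990 in ketone libraries 1 to 4. A normalized count is the number of reads divided by a factor for the library. Ketone library 1 was the lowest of all 8 and ketone library 3 the highest, so the groups overlapped. The means were 5896 ± 436 and 5023 ± 1522, and the difference on the log2(normalized count + 1) scale, ketone minus PBS, was -0.28 ± 0.20. Without ketone library 1 it was -0.07 ± 0.14.

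Arnt, the partner through which the receptor binds DNA (chromosome 3, 95434388 to 95497240, plus strand), was lower in every ketone library than in any PBS library. It stood at 7449, 6922, 7584 and 7039 normalized counts in PBS and at 3636, 4249, 5934 and 5331 in ketone. The PBS libraries lay within 1.10-fold of each other and the ketone libraries within 1.63-fold. The means were 7249 ± 318 and 4788 ± 1037, a ratio of 0.661 and a log2 difference of -0.62 ± 0.16. The 2 lowest values were those of ketone libraries 1 and 2, which stand apart as described, and without both the log2 difference was -0.36 ± 0.11. Endothelial transcripts were lowest in ketone library 3, where Arnt was nearest to PBS. When the mean log2 level of the endothelial markers, which follows the groups, was added to the model, the log2 difference was 0.28 ± 0.47, so its direction changed and its error was larger. The part of other cell types in the Arnt difference was not tested.

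**Figure D1:**
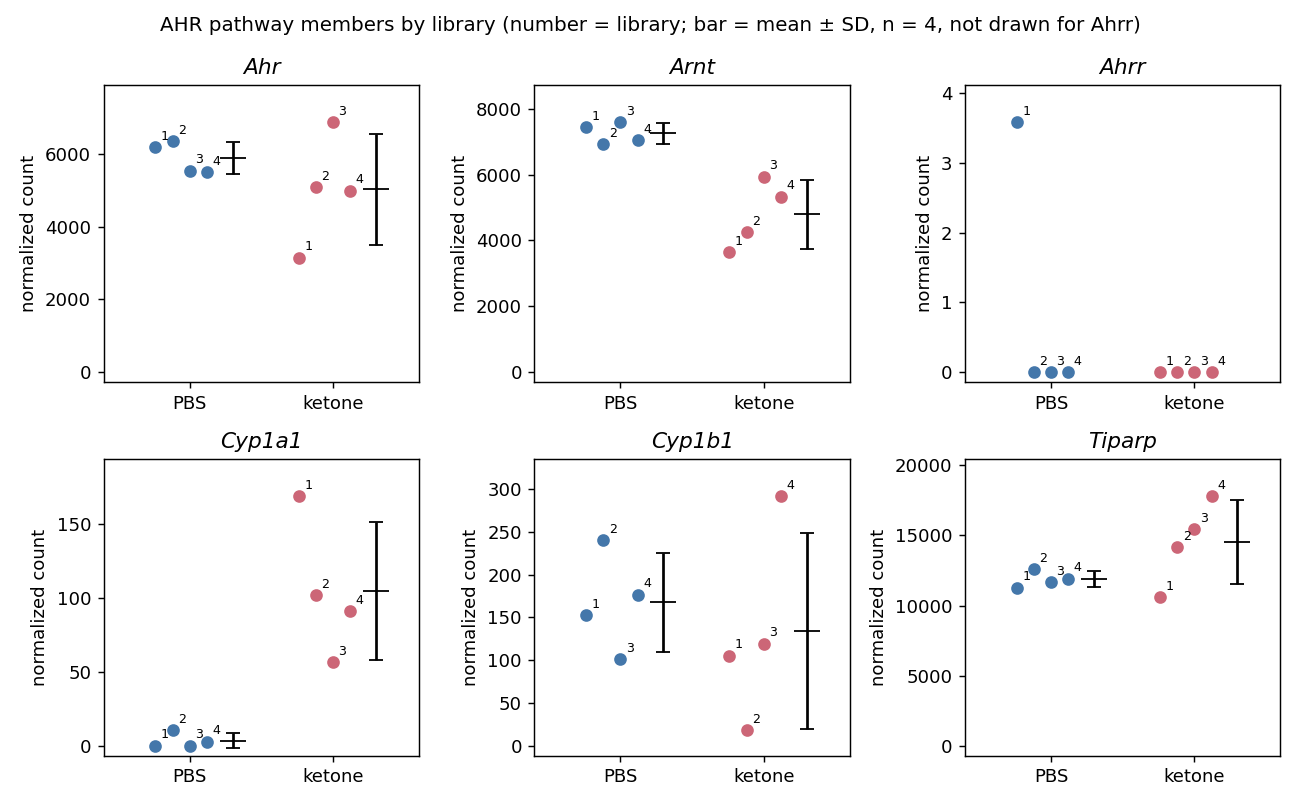
Normalized count (y axis, linear from 0) of each of the 6 genes in the 4 PBS (blue) and 4 ketone (red) libraries; the number beside a point is the library, and the black bar is the mean ± SD, not drawn for Ahrr. Arnt and Cyp1a1 show no overlap between groups, with Arnt at 3636 to 5934 in ketone and 6922 to 7584 in PBS. By SD on this linear scale, Ahr, Arnt, Cyp1a1, Cyp1b1 and Tiparp all spread more widely in ketone than in PBS.

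Cyp1a1, a cytochrome P450 that oxidises aromatic hydrocarbons and is the classical readout of receptor activity (chromosome 9, 57687928 to 57703824, plus strand), was almost undetected in PBS. It had 0, 10, 0 and 2 reads in PBS libraries 1 to 4 and 265, 95, 57 and 91 in ketone libraries 1 to 4. Of the 12 PBS reads, 10 came from PBS library 2. In normalized counts these were 0, 10.5, 0 and 2.78 in PBS and 169, 102, 56.7 and 91.2 in ketone, so the lowest ketone library was above the highest PBS library. For the PBS libraries at 0, a count of 0 allows up to 2.69 (library 1) and 3.08 (library 3) normalized counts, that is 3 reads, a limit that covers counting error only. The means were 3.32 ± 4.96 and 105 ± 47.02, a ratio of 31.5 that rests on 12 PBS reads. The log2 difference was 5.26 ± 0.80 and depends on the value added before the logarithm, being 5.82 with 0.5 and 3.79 with 5. Without PBS library 2 it was 5.98. Cyp1a1 passed the filter on low values only through the ketone libraries.

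Endothelial RNA was higher in the same group as Cyp1a1. In ketone libraries 1 to 4 the endothelial sum was 91623, 100534, 41943 and 87166. Library 3 was lowest for both, while the highest Cyp1a1 was in library 1 and the highest endothelial sum in library 2. Per 1000 normalized counts of the endothelial list, Cyp1a1 was 0, 0.892, 0 and 0.206 in PBS and 1.85, 1.01, 1.35 and 1.05 in ketone. The groups did not overlap on this scale either, with means of 0.274 ± 0.423 and 1.31 ± 0.385, but the highest PBS library came near the lowest ketone one. Per 1000 counts of Pecam1 alone the values were 0, 16.2, 0 and 4.01 in PBS and 39.7, 18.2, 26.6 and 18.5 in ketone. With the endothelial covariate the log2 difference was 4.32 ± 2.70. Ketone library 1, the highest for Cyp1a1, also had the highest blood and immune sum (8176 against 1233 to 4873 in the other ketone libraries and 747 to 1053 in PBS) and myofiber sum (28688 against 3621 to 5484 in the other 7 libraries). Without ketone library 1 the log2 difference of Cyp1a1 was 4.99 ± 0.93. Which cells the Cyp1a1 reads came from was not tested.

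Cyp1b1, a related P450 that also metabolises steroids and retinoids (chromosome 17, 79701537 to 79715061, minus strand), did not follow Cyp1a1. It was at 152, 240.5, 102 and 177 normalized counts in PBS and at 105, 18.2, 119 and 292 in ketone. Ketone library 2 was the lowest of the 8 and ketone library 4 the highest, a 16.0-fold range within the ketone group against 2.37-fold within PBS. The means were 168 ± 57.7 and 134 ± 115, with a log2 difference of -0.81 ± 0.61. Without ketone library 2 it was -0.05 ± 0.37, and without ketone library 4 it was -1.36 ± 0.55, so single libraries set its size. Without ketone libraries 1 and 2 the log2 difference was 0.22 ± 0.36, a change of sign. With the count tests it was -0.33 (DESeq2) and -0.32 (edgeR). Ketone library 4 also had the highest smooth muscle and pericyte sum, 31196 against 18027 to 24301 in the other ketone libraries and 13859 to 15807 in PBS. Ketone library 2 had the lowest fibro-adipogenic sum, 62162 against 72767 to 100501 in the other 7 libraries. Neither list followed Cyp1b1 at the other end. The fibro-adipogenic sum was highest in ketone library 1, where Cyp1b1 was at 105. The smooth muscle and pericyte sum of ketone library 2 was 19599, above that of ketone library 3 (18027) and of every PBS library. The part of these cell types in the spread of Cyp1b1 was not tested.

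**Figure D2:**
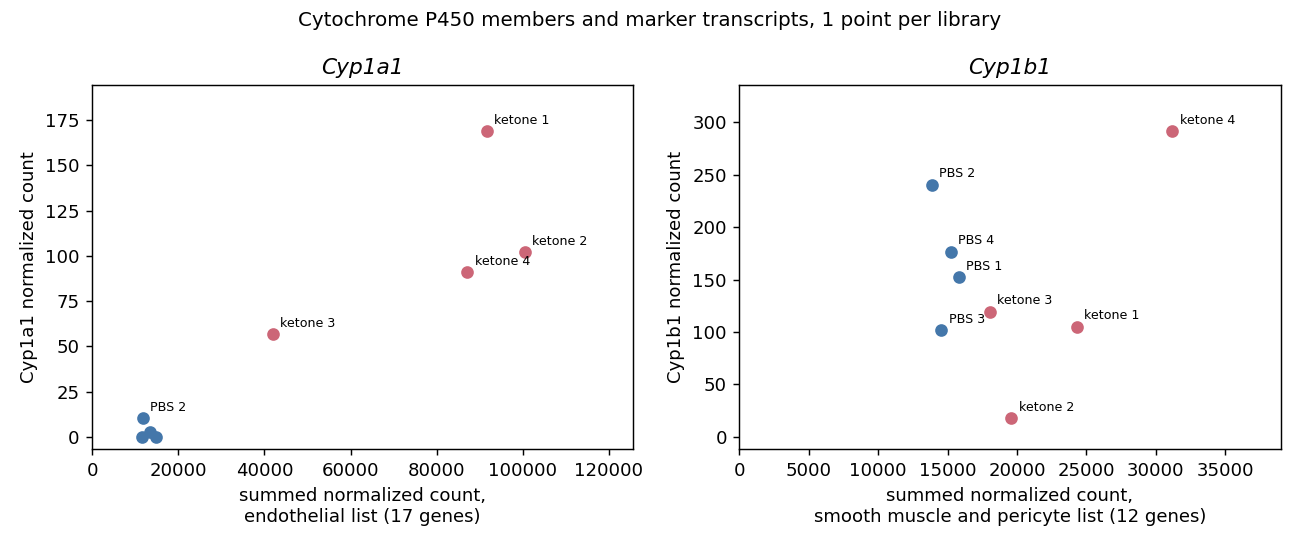
Left, Cyp1a1 normalized count (y axis) against the summed normalized count of 17 endothelial markers (x axis), and right, Cyp1b1 against the sum of 12 smooth muscle and pericyte markers; each point is 1 library, PBS in blue and ketone in red. PBS libraries have endothelial sums of 11559 to 14753 and Cyp1a1 of at most 10.5, ketone libraries 41943 to 100534 and at least 56.7, while Cyp1b1 is highest in ketone library 4 (292) and lowest in ketone library 2 (18.2).

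Tiparp, the ADP-ribosyltransferase also called PARP7 that is induced by the receptor and promotes its breakdown (chromosome 3, 65528410 to 65555518, plus strand), was the most abundant of the 6. It stood at 11281, 12622, 11659 and 11915 normalized counts in PBS and at 10599.6, 14179.8, 15460.5 and 17805 in ketone. Ketone library 1 was below every PBS library and the other 3 ketone libraries were above all of them. The means were 11869 ± 565 and 14511 ± 3009, with a log2 difference of 0.27 ± 0.17. Without ketone library 1 it was 0.41 ± 0.12 and without ketone libraries 1 and 2 it was 0.48 ± 0.11. An exon of Tiparp overlaps 4931440P22Rik on the opposite strand, whose mean was 297 normalized counts, and reads shared by the pair cannot be told apart. Ahrr, the repressor that competes with the receptor for ARNT (chromosome 13, 74211118 to 74292331, minus strand), had 4 reads in PBS library 1 and 0 in the other 7 libraries. In the ketone libraries a count of 0 allows at most 1.91 to 3.22 normalized counts, a limit that covers counting error only. A rise of Ahrr above that level was thus not seen, and a difference below it was not detectable at this depth.

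Of the 5 genes that passed the filter, 2 were among those called by limma over all genes (adjusted p below 0.05), Cyp1a1 as higher and Arnt as lower, and in the same 2 the groups did not overlap. Ahrr was below the filter and was not tested. Over all 14022 genes tested, 25.7% were called, 12.8% as higher and 12.8% as lower, and in 28.3% the groups did not overlap. Because the 6 genes were chosen with these values known, nothing is read from their count. The median log2 difference was -0.28 over the 5 and -0.01 over all genes tested. The count was 3, with Tiparp as higher, without ketone library 1 and without ketone libraries 1 and 2, and from this too nothing is read. With the endothelial covariate 0 of the 5 were called, and of all genes 2.

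Per kilobase of exon, the levels of the 6 genes can be set beside each other. In PBS, Tiparp was highest at 2724 ± 129.7 normalized counts per kb, followed by Ahr at 957 ± 70.8 and Arnt at 905 ± 39.7, and the last 2 did not differ beyond their spread. Cyp1b1 was far below at 28.7 ± 9.88, then Cyp1a1 at 1.19 ± 1.78 and Ahrr at 0.0949 ± 0.19. In ketone the order was Tiparp at 3329.8 ± 690.5, Ahr at 815 ± 247, Arnt at 598 ± 129.5, Cyp1a1 at 37.6 ± 16.9 and Cyp1b1 at 22.9 ± 19.6, with Ahrr at 0. The neighbours Ahr and Arnt, and Cyp1a1 and Cyp1b1, overlapped there. Cyp1b1 exceeded Cyp1a1 per kb in all 4 PBS libraries. In ketone the ratio of Cyp1b1 to Cyp1a1 was 0.297, 0.0854, 1.005 and 1.53 in libraries 1 to 4.

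Ratios within a library do not depend on how libraries were scaled. Tiparp per kb was 2.78, 3.35, 2.82 and 3.11 times Arnt in PBS libraries 1 to 4 and 5.36, 6.13, 4.79 and 6.14 times in the ketone libraries, with no overlap. The ratio of Tiparp to Ahr was 2.86 ± 0.212 in PBS and 4.23 ± 0.844 in ketone, also without overlap, the nearest libraries being at 3.06 and 3.18. The ratio of Ahr to Arnt was 1.06 ± 0.103 in PBS and 1.35 ± 0.213 in ketone, and here the groups overlapped. As the 6 genes were chosen with these values known, the ratios are a description. How often other gene pairs lack overlap was not counted, and the ratios do not tell which gene changed.

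**Figure D3:**
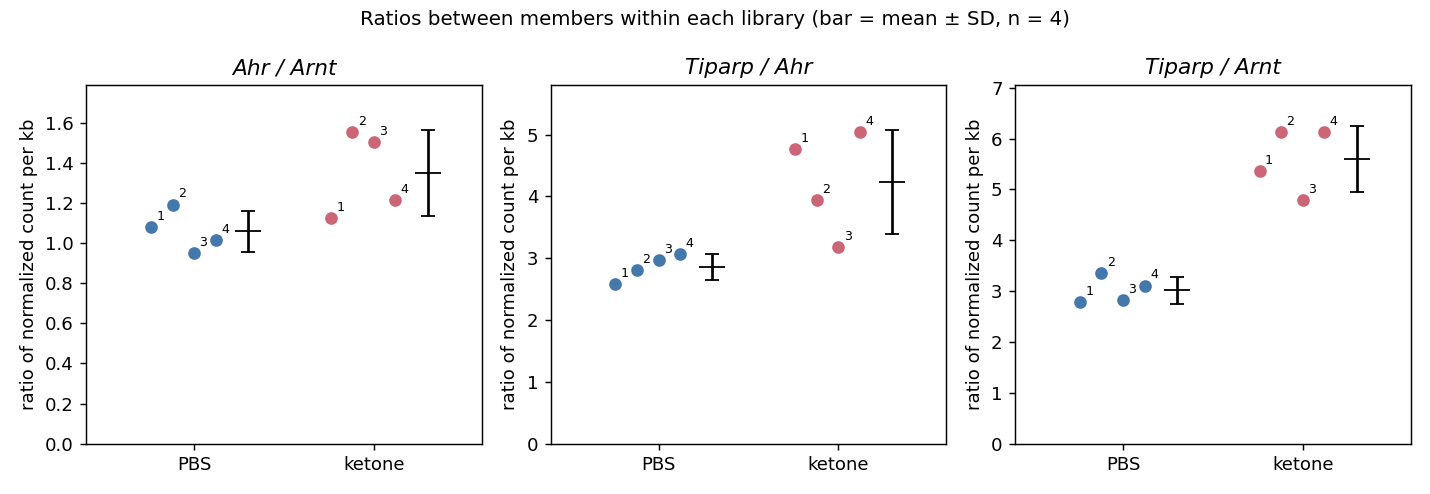
Ratio of normalized count per kb (y axis, linear from 0) between pairs of members within each library, PBS in blue and ketone in red, with the library number beside each point and the mean ± SD as a black bar. Tiparp to Arnt is 2.78 to 3.35 in PBS and 4.79 to 6.14 in ketone, Tiparp to Ahr shows a narrow gap between groups, and Ahr to Arnt overlaps.

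The genes with the most similar profile over the 8 libraries were found by the root mean square difference of log2 values, each gene centred on its own mean, and this measure is a description. For Ahr they were Map3k2 (0.0595), Smad5 (0.0639) and Dstyk (0.0719). Arnt was matched most closely by Kidins220 (0.057), Ampd2 (0.0585) and Ap1g1 (0.0656). For Tiparp they were Crk (0.0504), Emc2 (0.0673) and H6pd (0.077). Cyp1a1 had no close match by this measure, with Cd40 at 0.671, Ms4a1 at 0.877 and Nts at 0.925. The PBS means of these genes were 1.84, 1.57 and 5.71, so like Cyp1a1 they passed the filter only through the ketone libraries. Counts near 0 weigh heavily in these distances on the log2 scale. Cd40, a receptor of B cells and other antigen-presenting cells, was at 0, 7.35, 0 and 0 normalized counts in PBS and at 50.4, 64.4, 29.9 and 62.2 in ketone. Ms4a1, which encodes the B cell protein CD20, was at 216, 64.4, 39.8 and 23.1 in ketone libraries 1 to 4. It was highest in library 1, as Cyp1a1 was, but lowest in library 4, while Cyp1a1 was lowest in library 3. Nts was at 115, 133, 91.6 and 98.3 in the same libraries, highest in library 2. Cyp1b1 lay between, with Colca2 at 0.356, Pafah2 at 0.367 and Tmeff1 at 0.378.

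Other genes of the pathway were taken from 7 lists with 107 genes, of which 93 passed the filter. Of these, 14 rose and 12 fell, or 27.96% called against 25.7% of all genes, and their median log2 difference was -0.05 against -0.01. The share over all lists is thus near the background. All lists were chosen with earlier results of these data known, so their shares and p-values are a description. Without ketone libraries 1 and 2 the counts were 17 higher and 20 lower, and the calls over all genes were also more, 4682 of 13782 against 3600 of 14022. Adjusted p-values for these genes are from limma, over all 14022 genes. With the endothelial covariate, which follows the groups, 0 of them were called as higher and 0 as lower, and of all genes 2. Gene by gene values are for the listed genes with the smallest p and the most abundant one of each list.

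Other target genes of the receptor held the highest share called, 53.3% against 25.7% of all genes. Of 15 tested genes 6 were higher and 2 lower, and the median log2 difference was 0.68. Nothing is read from this share, as the list was chosen with earlier results of these data known. Scin, which encodes an actin-severing protein, was at 9.23 to 20.6 normalized counts in PBS and 156 to 423 in ketone, a log2 difference of 4.01 ± 0.40 (adjusted p = 1.42e-05). Xdh, xanthine dehydrogenase of purine breakdown, rose from 385 ± 73.1 to 2165 ± 661 (adjusted p = 5.98e-06). Its ketone values were 3022, 2028, 1419 and 2194 in libraries 1 to 4, lowest in library 3 as the endothelial sum was, but highest in library 1 while that sum was highest in library 2. With the endothelial covariate, which follows the groups, the log2 difference was 0.74 ± 0.55 for Xdh against 2.46 ± 0.22 without it, and 3.49 ± 1.35 against 4.01 ± 0.40 for Scin, and neither was called. The part of endothelial RNA in these differences was not tested. Il6, an inflammatory cytokine gene, rose from 2318 ± 218 to 7972 ± 2693 (adjusted p = 6.17e-05). Slc7a5, the large neutral amino acid transporter that brings in tryptophan, fell from 7841 ± 516 to 2744 ± 687 (adjusted p = 4.34e-05). With the endothelial covariate the log2 differences were 1.73 ± 0.70 for Il6 and -1.42 ± 0.60 for Slc7a5, and neither was called. Nfe2l2, the antioxidant regulator NRF2 and the most abundant of the list, had a log2 difference of 0.22 ± 0.19 (adjusted p = 0.43), and it was called as higher, at 0.42, without ketone library 1. Cyp1a2, the liver P450 beside Cyp1a1, was at 0 reads in all 8 libraries.

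In the receptor's own protein family, the bHLH-PAS factors, 3 of 15 rose and 1 fell. Epas1, the hypoxia factor of endothelial cells that also pairs with ARNT, went from 739 ± 53.3 to 3127 ± 908 (log2 difference 2.02 ± 0.21, adjusted p = 2.09e-05). With the endothelial covariate the log2 difference was 0.24 ± 0.49, and the part of endothelial RNA in it was not tested. Arnt2, a close relative of Arnt, fell from 260.1 ± 51.2 to 141 ± 39.5 (adjusted p = 0.0163). The clock genes Per2 and Npas2 rose by 0.96 and 0.68 on the log2 scale (adjusted p = 0.00535 and 0.0307), with overlap between groups in both. Hif1a, the hypoxia factor gene and the most abundant of the list, had a log2 difference of -0.22 ± 0.23 (adjusted p = 0.522), which was 0.03 without ketone library 1. The call of Npas2 was lost without any 1 library except ketone library 1, and that of Arnt2 without PBS library 1 or 2.

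Among the proteins that hold, stabilise or degrade the receptor, 1 of 8 fell and 0 rose. Hsp90ab1, the constitutive HSP90 chaperone, fell from 67333 ± 7312 to 39654 ± 7130.2 normalized counts (adjusted p = 0.007). Of 18 coregulators 2 fell and 0 rose. Ncoa1, a coactivator, fell from 13004 ± 666 to 7004 ± 1319 (adjusted p = 0.000911), and Ncoa7 fell by 0.82 on the log2 scale (adjusted p = 0.0187, lost without PBS library 1 or 2 or ketone library 4 and with quantile normalization). With the endothelial covariate, which follows the groups, the log2 differences were -0.0047 ± 0.45 for Ncoa1 and 0.57 ± 0.66 for Ncoa7, and neither was called. The part of endothelial RNA in these differences was not tested. Rela, the NF-kB subunit and the most abundant of the list, had a log2 difference of -0.19 ± 0.19 (adjusted p = 0.506).

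Cytochrome P450 enzymes need electrons and haem, and in that list 1 of 10 rose and 2 fell. Por, the reductase that passes electrons to CYP1 enzymes, fell from 14295 ± 1461 to 8206 ± 856 (adjusted p = 0.00134), below every PBS library in all 4 ketone libraries. Cyb5a, cytochrome b5, rose from 1591 ± 92.1 to 2747 ± 309.8 (adjusted p = 0.00105). Alas1, the first enzyme of haem synthesis, fell by 0.62 on the log2 scale (adjusted p = 0.00904). Hmox1, which degrades haem, had a log2 difference of -0.67 ± 0.29 (adjusted p = 0.104). It was called as lower without ketone library 2 (-0.95) and without ketone libraries 1 and 2 (-0.68).

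Of the enzymes that turn tryptophan into kynurenine and related ligands, 8 of 16 passed the filter, 1 fell and 0 rose. Ido1, which opens the route to kynurenine and is named after its values were seen, was at 22.4, 7.35, 11.3 and 18.1 normalized counts in PBS and 61.9, 22.5, 50.8 and 30.1 in ketone. The groups did not overlap, by a narrow gap, and the log2 difference was 1.42 ± 0.53 (adjusted p = 0.0643). Ddc, aromatic amino acid decarboxylase, fell from 87.9 ± 16.9 to 33.3 ± 19.7 (adjusted p = 0.0222), and the call was lost without PBS library 3 or 4. Maob, a monoamine oxidase and the most abundant of the list, had a log2 difference of -0.06 ± 0.17 (adjusted p = 0.816).

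Of 19 ADP-ribosyltransferases and related genes, the family of Tiparp, 4 rose and 3 fell. Parp14 and Parp9, which take part in the interferon response, rose from 781 ± 54.3 to 1739.5 ± 686 and from 1069 ± 55.5 to 1898 ± 441 normalized counts (adjusted p = 0.00268 and 0.00501). With the endothelial covariate the log2 differences were -0.08 ± 0.65 and -0.32 ± 0.49, so their sign could not be told. Zc3hav1, the antiviral RNA-binding protein ZAP, rose by 0.64 on the log2 scale (adjusted p = 0.0138, lost without PBS library 1). Parp11 fell by 0.82 (adjusted p = 0.0169, lost without PBS library 1 or 2). Tnks2, a tankyrase and the most abundant of the list, had a log2 difference of -0.37 ± 0.14 (adjusted p = 0.0632), with no overlap between groups, and was called as lower without ketone library 3 (-0.44), with TMM scaling (-0.39) and with DESeq2 (-0.36).

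**Figure D4:**
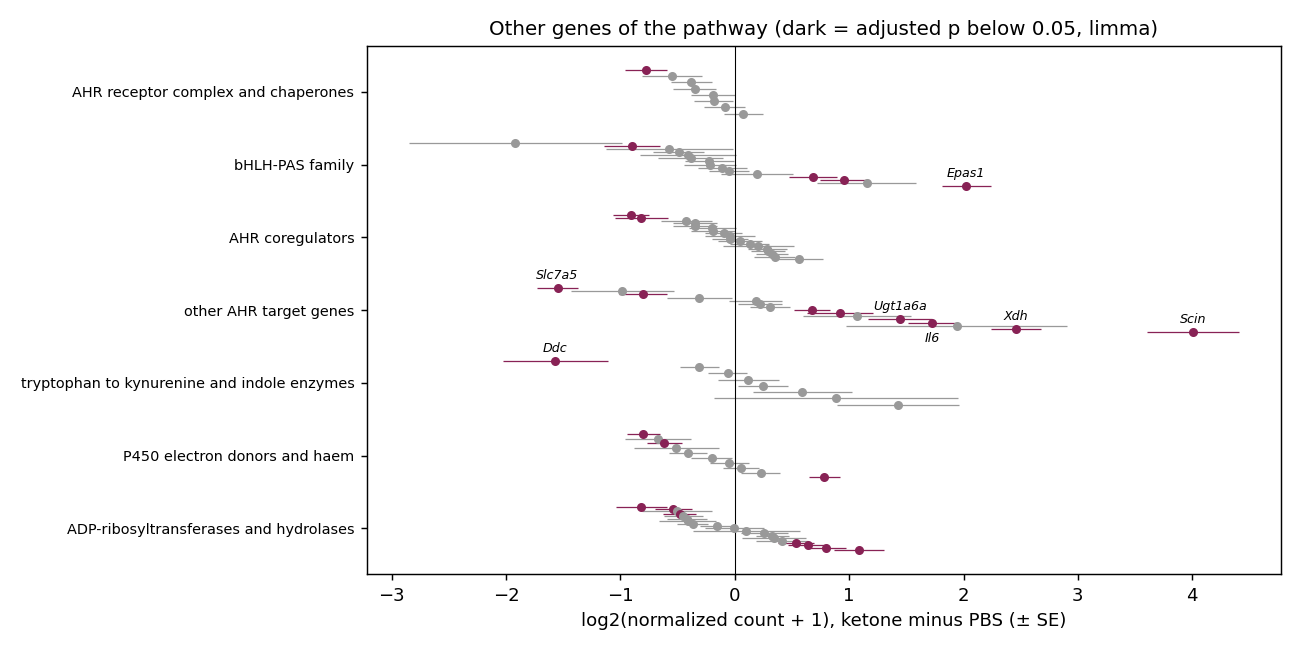
Log2 difference, ketone minus PBS, with its SE (x axis) for the 93 tested genes of the 7 pathway lists (rows; a gene's height within its row only separates points); dark points have an adjusted p below 0.05 by limma. Scin at 4.01, Xdh at 2.46 and Epas1 at 2.02 lie farthest to the right among called genes, and Ddc at -1.57 and Slc7a5 at -1.55 farthest to the left.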

How the data were processed

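Whole-gene RNA levels were measured in 8 libraries, grouped by the treatment label. Per the labels' protocols, cDNA was primed with oligo(dT) in a low-input kit and amplified, so polyadenylated RNA is favoured and PCR copies count as reads. Per the submitters' processing notes, Trim Galore, STAR, featureCounts, Subread and DESeq2 were used with mm10. Versions, settings and strand handling were not stated there. The authors deposited a normalized signal per gene, in which 1 factor scales the reads of each library. In each library 100% of values were whole multiples of 1 read (within 0.001 of a read), worth 0.638 to 1.39 normalized counts. Of 25239 rows, 2 held dates in place of symbols and were left out.

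The log2 of the normalized count plus 1 was analysed. Genes averaging 10 or more over all libraries were kept, and limma 3.58.1 (R 4.3.3, trend, no covariate) was fitted to all of them, with Benjamini-Hochberg adjustment and 0.05 as the threshold. The scripts were tested on simulated data. Coordinates and exon lengths are from GENCODE vM21, where 96.5% of symbols were found, and start regions are from RefSeq. The 6 members and all lists were chosen with earlier results of these data known. Named list genes are up to 4 with the smallest p among those called, plus the most abundant, and 3 genes of similar profile per member, without predicted genes. Alternatives were pseudocounts of 0.5 and 5, no filter or a filter at 50, TMM scaling, equal totals, quantile normalization, the library number as a block, an endothelial covariate, count tests on whole reads with DESeq2 1.42.0 and edgeR 4.0.16, and leaving out libraries. Libraries of a group all differed by more than counting noise, the closest pair having a chi-square of 13.4 per degree of freedom. Over all genes, pairs of ketone libraries differed more (51.2 to 192) than pairs of PBS libraries (13.4 to 37.15).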

Additional observations from a re-analysis of the deposited data

Results flagged for a closer look

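In groups of 4 libraries, the gap of the farthest library to its nearest neighbour was compared with the group's range in 61 sets of values, and 4 exceeded Dixon's 95% critical value. Chance flags about 1 in 20 such sets. Ahrr was at 3.58 normalized counts (4 reads) in PBS library 1 and at 0 in the others. Epas1 was at 1774 in ketone library 3 against up to 3712 in the others. Arnt2 was at 199.6 in ketone library 2, with the lowest ketone library at 119. Maob was at 1668 in PBS library 2 against up to 2086 in the others.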

How the results depend on the processing

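The members were chosen with these values known, so their calls under the 20 alternatives are no support. With the endothelial covariate the count of members called was 0, of other pathway genes 0 higher and 0 lower, and of all genes 2. The log2 differences were then 1.17 for Ahr, 0.28 for Arnt, 1.14 for Cyp1b1 and 0.74 for Tiparp, and for the named list genes that changed sign 1.12 (Hif1a), 0.875 (Maob), 0.57 (Ncoa7), -0.083 (Parp14), -0.32 (Parp9) and 0.18 (Tnks2). The covariate follows the groups, which enlarges the errors. With a pseudocount of 5, Cyp1a1 was at 3.79. Without ketone libraries 1 and 2, Arnt was at -0.36, Ahr at -0.007 and Cyp1b1 at 0.22, a change of sign for Cyp1b1. In that setting 20 pathway genes were lower, and Hif1a (0.23), Maob (0.19) and Rela (0.064) also changed sign. Maob also changed sign with quantile normalization (0.036). For these the cause was not tested.

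Leaving out 1 library gave log2 differences of -0.45 to -0.07 for Ahr, -0.74 to -0.5 for Arnt, 4.80 to 5.98 for Cyp1a1, -1.36 to -0.05 for Cyp1b1 and 0.16 to 0.41 for Tiparp. It gave 2 to 3 members called, 11 to 15 pathway genes higher, 7 to 15 lower and 2356 to 4070 of all genes. Without PBS library 1 there were 7 pathway genes lower and 2356 genes called in all. Hif1a ran from -0.38 to 0.027 and Maob from -0.195 to 0.0598. Library numbers gave no clear sign of pairs (correlations of deviations 0.161, 0.0653, -0.0347 and -0.0785 for numbers 1 to 4). The value for number 1 was the highest of any PBS and ketone library, and such correlations cannot exclude pairing. With the number as a replicate block the same 2 members were called, with log2 differences of 5.26 and -0.62, and 3595 of all genes against 3600. The median over all genes was 0.106 with DESeq2, over 19018 genes, against -0.01 in the main analysis. Depth limits Ahrr and the PBS level of Cyp1a1.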
